A study of Homo sapiens with 2 samples.

Results

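The 48 nuclear genes described here encode respiratory complex III, cytochrome c, the subunits and 7 assembly factors of complex IV, and the ATP synthase with its inhibitor. They were taken by symbol from the 25343 gene entries of each library, and all 48 were found once in both. RNA came from Huh7, an established human line derived from a well differentiated hepatocellular carcinoma. Wells received 500000 cells, which then spent 6 days in a high glucose medium of 4.5 g/L or a low glucose medium of 0.45 g/L. Live cells were passaged whenever the wells were nearly confluent, the labels name no genetic change in the line, and each medium is represented by 1 library. No test can be made with a single library on each side, so every difference given below describes these 2 libraries, has no replicate check and carries no error. The values are TPM, which correct for transcript length and sum to 1000000 per library, so the levels of different genes can be set side by side. TPM keep no read counts, and the depth of the libraries is not known. In such bulk RNA, fewer cells that express a gene and less RNA per cell cannot be told apart.

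Complex III passes electrons from ubiquinol to cytochrome c and pumps protons across the inner mitochondrial membrane. Complex IV, cytochrome c oxidase, takes the electrons from cytochrome c, reduces oxygen to water and also pumps protons. The ATP synthase lets the protons flow back through its membrane rotor and uses that flow to make ATP in its F1 head. Hepatocytes rely on these enzymes for much of their ATP, while many liver cancer lines kept in rich glucose also draw on glycolysis. The catalytic core of complex IV and a few subunits of the other complexes are made from mitochondrial DNA. Neither library lists an entry on the mitochondrial chromosome, so these could not be analysed here.

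In low glucose, complex III and the ATP synthase were lower throughout, by a modest amount, while the common subunits of complex IV lay on both sides. All 9 complex III genes and all 16 ATP synthase genes had less TPM in low than in high glucose. Of the 11 common complex IV subunits, 7 had more. For COX7A2 and COX8A among them the sign turned under median-of-ratios and trimmed-mean scaling, leaving 5. Of all 13745 genes with a mean of at least 1 TPM, 7498 had more in low glucose. Of the 1748 genes with a mean of at least 100 TPM, 645 had more. The 4 copper-delivery factors of complex IV among the members were all lower. A single member, the testis isoform COX6B2, was at least 2-fold higher, from a low level, and none was 2-fold lower.

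Each difference is log2(TPM + 1) under low glucose minus log2(TPM + 1) under high glucose, for genes with a mean of at least 1 TPM over both libraries. Of the 48 members, 45 reached that level and 3 tissue isoforms of complex IV were listed at 0 in both libraries. Among the 45 members, 1 was at least 2-fold higher and 0 were at least 2-fold lower, against 3.65% and 1.10% of the 13745 genes compared. With a threshold of 1.5-fold, 2 members were higher and 5 lower, against 13.0% and 6.07% of all genes compared. Below 0 lay 35 of the 45 members, where the share among all genes compared was 45.3%. The median difference of the members was -0.38, beside 0.05 over all genes compared.

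Abundance bears on these counts, because genes of high level tended lower in low glucose, and 36 of the members had a mean of at least 100 TPM. Of the 1748 genes at that level, 63.1% lay below 0, 10.4% were at least 1.5-fold higher and 10.5% at least 1.5-fold lower; their median was -0.14. Of the 36 members at that level, 28 lay below 0, 1 was at least 1.5-fold higher and 5 at least 1.5-fold lower; their median was -0.38. The part of level in the members' differences was not tested beyond these values. Summed over all 48, the members held 15296 TPM under high and 13366 TPM under low glucose, 1.53% and 1.34% of each library.

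**Figure D1:**
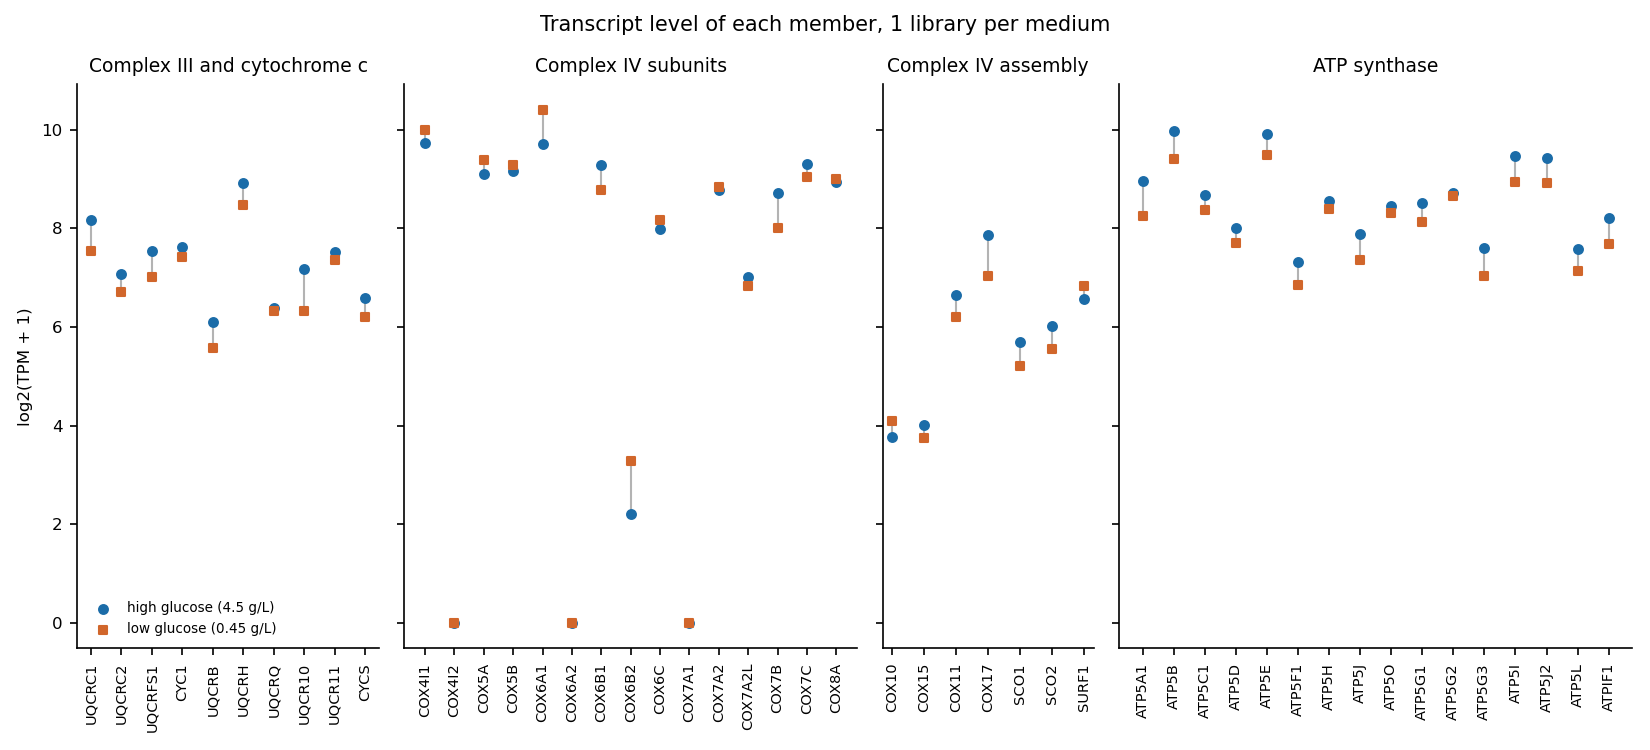
Level of each of the 48 members as log2(TPM + 1), in high glucose (blue circles) and low glucose (orange squares), 1 library per medium with no error bars, by complex. Low glucose lies under high glucose for all members of complex III and the ATP synthase, and COX4I2, COX6A2 and COX7A1 lie at 0 in both.

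Each of the 4 nuclear core genes of complex III was lower in low glucose. UQCRC1, a core protein of the peptidase-like base of the complex (hg19 chromosome 3, 48636432 to 48647098), stood at 287 TPM under high and 184 TPM under low glucose, a difference of -0.64. Its partner UQCRC2 stood at 134 and 104 TPM (-0.36). UQCRFS1, the Rieske iron-sulfur protein that takes the first electron from ubiquinol, stood at 184 and 129 TPM (-0.51). The last of these core genes, CYC1, encodes cytochrome c1, which hands the electron on to cytochrome c. CYC1 stood at 196 and 171 TPM, the smallest difference of the 4 nuclear core genes at -0.20.

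The 5 small supernumerary subunits of complex III, which surround the core and stabilise it, spread more widely. UQCR10 (chromosome 22, 30163358 to 30166402) stood at 143 TPM under high and 79.3 TPM under low glucose, a difference of -0.84 and the largest negative one among all members compared. UQCRQ, at 82.0 and 79.5 TPM (-0.04), was nearly level. UQCR10 and UQCRQ had the widest and the narrowest difference among the complex III members. UQCRH, the acidic hinge subunit and the most abundant transcript of the complex, stood at 482 and 356 TPM (-0.44). UQCRB stood at 67.4 and 46.9 TPM (-0.51) and UQCR11 at 183 and 163 TPM (-0.17). The summed level of complex III was 1759 TPM under high and 1312 TPM under low glucose. CYCS, cytochrome c itself, which shuttles electrons from complex III to complex IV and triggers caspases when released from mitochondria, stood at 94.6 and 72.6 TPM (-0.38).

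Complex IV subunits did not follow that direction as a group. COX6A1 (chromosome 12, 120875893 to 120878545), the liver-type form of a regulatory subunit, stood at 834 TPM under high and 1347 TPM under low glucose, a difference of 0.69. With this it moved from rank 164 to rank 95 among all entries, and it was the most abundant member in low glucose. COX4I1, the common form of the largest nuclear-encoded subunit, through which ATP inhibits the enzyme, stood at 853 and 1026 TPM (0.27). Its assembly partner COX5A, which joins it early in the building of the complex, stood at 548 and 666 TPM (0.28). The 2 partners thus differed by nearly the same amount. COX5B, a zinc-binding subunit, stood at 568 and 622 TPM (0.13), and COX6C at 251 and 286 TPM (0.19).

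COX7A2 and COX8A, both small single-helix subunits, were close to level. COX7A2 stood at 440.5 and 458 TPM, a difference of 0.06 as deposited that was -0.03 under median-of-ratios scaling. COX8A stood at 487 and 513 TPM, a difference of 0.08 as deposited and -0.01 under the same scaling.

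Lower in low glucose were 4 of the common subunits. COX7B (X chromosome, 77154961 to 77160881) stood at 418 TPM under high and 257 TPM under low glucose (-0.70). COX6B1, which faces the intermembrane space and joins the monomers of the enzyme dimer, stood at 622 and 435 TPM (-0.51). COX7C stood at 628 and 523 TPM (-0.26). COX7A2L, a relative of COX7A2 that ties complex IV to complex III in supercomplexes, stood at 128 and 113 TPM (-0.17) and was the least abundant common subunit in both libraries.

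In high glucose the most abundant common subunit, COX4I1, exceeded the least abundant, COX7A2L, 6.66-fold. In low glucose COX6A1 was the most abundant and exceeded COX7A2L 11.9-fold. These ratios rest on the genes at the ends and do not describe the group as a whole. The median difference of the 12 complex IV subunits compared was 0.10, against -0.44 for complex III and -0.44 for the ATP synthase. Over the 11 common subunits alone it was 0.08, the value of COX8A, which turned to -0.01 under median-of-ratios and -0.02 under trimmed-mean scaling. Over all genes compared the median was 0.05, and over those with a mean of at least 100 TPM it was -0.14. The summed level of the complex IV subunits, tissue isoforms included, was 5781 TPM under high and 6256 TPM under low glucose. Without COX6A1, left out after its values were seen, the sum was 4947 and 4908 TPM, so the higher total rested on that gene.

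**Figure D2:**
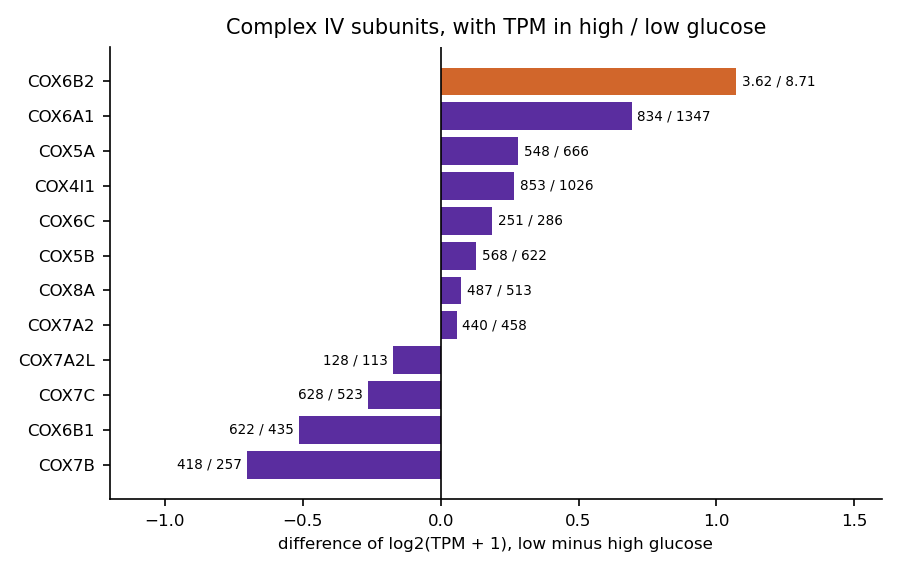
Low minus high glucose difference of log2(TPM + 1) for the 12 complex IV subunits compared, with TPM in high and low glucose printed at each bar (purple: common subunits; orange: tissue isoform COX6B2). COX6A1 and COX6B2 lie furthest to the right and COX7B and COX6B1 furthest to the left; the signs of COX7A2 and COX8A turn under median-of-ratios and trimmed-mean scaling.

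Several complex IV subunits have a second gene used in particular tissues, and Huh7 cells transcribed little of any of these in either medium. COX4I2, the lung form that responds to low oxygen, COX6A2, the heart and skeletal muscle form, and COX7A1, also of heart and skeletal muscle, were each listed at 0 in both libraries. Markers of striated muscle were likewise near 0. The 8 muscle genes summed to 3.74 TPM under high and 7.16 TPM under low glucose, with MYH2 and MB at 0 in both. Most of that sum was the giant sarcomere gene TTN at 2.58 and 3.20 TPM and the skeletal actin gene ACTA1 at 0.70 and 3.57 TPM. Hepatocyte and hepatoma genes were abundant: the 8 listed summed to 39602 and 33530 TPM, led by AFP and ALB.

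COX6B2, known as the testis form of COX6B1 (chromosome 19, 55861070 to 55866182), was the only tissue isoform detected. It stood at 3.62 TPM under high and 8.71 TPM under low glucose, a difference of 1.07 on the log2(TPM + 1) scale. Its level in low glucose was 2.41 times that in high glucose. The common form COX6B1 differed in the opposite direction, so the COX6B2 share of the pair was 0.579% in high and 1.96% in low glucose, a ratio that no rescaling of a library alters. The difference fell just short of 2-fold under median-of-ratios and trimmed-mean scaling (0.99 under both) and was 0.67 with a pseudocount of 5, so the call rests on the settings. Of 5 testis germ cell genes, none reached a mean of 1 TPM, and their sum was 1.0 and 1.1 TPM in high and low glucose. TNP1 (0 and 0.58 TPM) and DDX4 (0.22 and 0.30 TPM) lay higher in low glucose. PRM1 (0.24 and 0 TPM) and PRM2 (0.54 and 0.19 TPM) lay lower. ACRV1, a protein of the sperm acrosome, was at 0 in both.

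Complex IV is built with the help of factors that are not part of the finished enzyme. All 4 copper-delivery genes among the members were lower in low glucose. COX17 (chromosome 3, 119388372 to 119396243) hands copper to the SCO proteins and COX11 within the intermembrane space. COX17 stood at 232 TPM under high and 131 TPM under low glucose, a difference of -0.82. SCO1 and SCO2 place copper in the site that receives electrons from cytochrome c. SCO1 stood at 50.8 and 35.8 TPM (-0.49), and SCO2 at 63.9 and 46.0 TPM (-0.46). COX11, which loads the copper site next to heme a3, stood at 99.3 and 72.6 TPM (-0.45). These 4 copper genes summed to 446 TPM under high and 285 TPM under low glucose. Of other complex IV assembly genes outside the members, COX19 was higher at 8.32 and 10.68 TPM (0.33). CMC1 was nearly level (-0.07) and COA6 was lower (-0.73).

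The heme A enzymes and SURF1 did not all share the lower direction of the copper genes among the members. COX10, which attaches the farnesyl tail to heme, stood at 12.6 and 16.2 TPM (0.34). COX15, which carries out the next step to heme A, stood at 15.1 and 12.5 TPM (-0.25). Both were the least abundant members of these complexes apart from the tissue isoforms. SURF1, an early assembly factor whose loss causes Leigh syndrome, stood at 94.2 and 112 TPM (0.25). The intervals of COX10, COX15, COX11 and SCO2 overlap those of other genes of at least 1 TPM. Strand use in counting is not given in the sources used here, so reads of these neighbours may be mixed.

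The F1 head of the ATP synthase, where ATP is made, was lower in low glucose for each of its 5 genes. ATP5B, the catalytic beta subunit and the most abundant member in high glucose, stood at 999 TPM under high and 680.4 TPM under low glucose (-0.55). ATP5A1, the alpha subunit that alternates with beta around the head (chromosome 18, 43664110 to 43684199), stood at 495 and 305 TPM, the largest difference of the enzyme at -0.70. ATP5C1, the gamma shaft that turns inside the head, stood at 406 and 329 TPM (-0.30). ATP5D and ATP5E form the foot of the shaft. ATP5D stood at 255 and 208 TPM (-0.29) and ATP5E at 970 and 719.7 TPM (-0.43). The interval of ATP5E overlaps the readthrough entry SLMO2-ATP5E, which can share its reads.

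The peripheral stalk, which keeps the head from turning with the shaft, was lower by amounts that differed among its 4 genes. ATP5J stood at 236 and 164 TPM (-0.52), and ATP5F1, the b subunit, at 158 and 115 TPM (-0.46). ATP5H stood at 376 and 336 TPM (-0.16), and ATP5O, which caps the head and confers oligomycin sensitivity, at 349 and 315 TPM (-0.15). The stalk genes therefore formed a pair with larger and a pair with smaller differences. Of these, ATP5J, ATP5F1 and ATP5H overlap neighbouring genes; the interval of ATP5J overlaps that of GABPA, an ETS factor of respiratory genes, at 19.0 and 13.9 TPM.

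The c ring, the proton-driven rotor, is encoded by 3 genes whose mature products are the same and whose import signals differ. ATP5G1 stood at 365 TPM under high and 277 TPM under low glucose (-0.40). ATP5G2 stood at 419 and 404 TPM (-0.05), close to level. ATP5G3 stood at 193 and 129 TPM (-0.58). The ATP5G2 share of their summed TPM was 42.9% in high and 49.9% in low glucose, while that of ATP5G1 was 37.3% and 34.2% and that of ATP5G3 19.8% and 16.0%. The summed supply of c subunit mRNA was 978 and 810.1 TPM. Because the 3 genes are paralogs, reads common to them were divided by estimation, and their separate levels carry that uncertainty.

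The small membrane subunits that hold ATP synthase dimers together differed by similar amounts. ATP5I stood at 705 and 493 TPM (-0.52), ATP5J2 at 684 and 482 TPM (-0.50) and ATP5L at 190.02 and 140.5 TPM (-0.43). ATPIF1, the inhibitor that blocks the enzyme from running backwards and consuming ATP when the membrane potential is lost, stood at 294 and 203 TPM (-0.53). Its level relative to ATP5B was 0.294 in high and 0.299 in low glucose, so inhibitor and catalytic subunit transcripts kept nearly the same proportion.

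**Figure D3:**
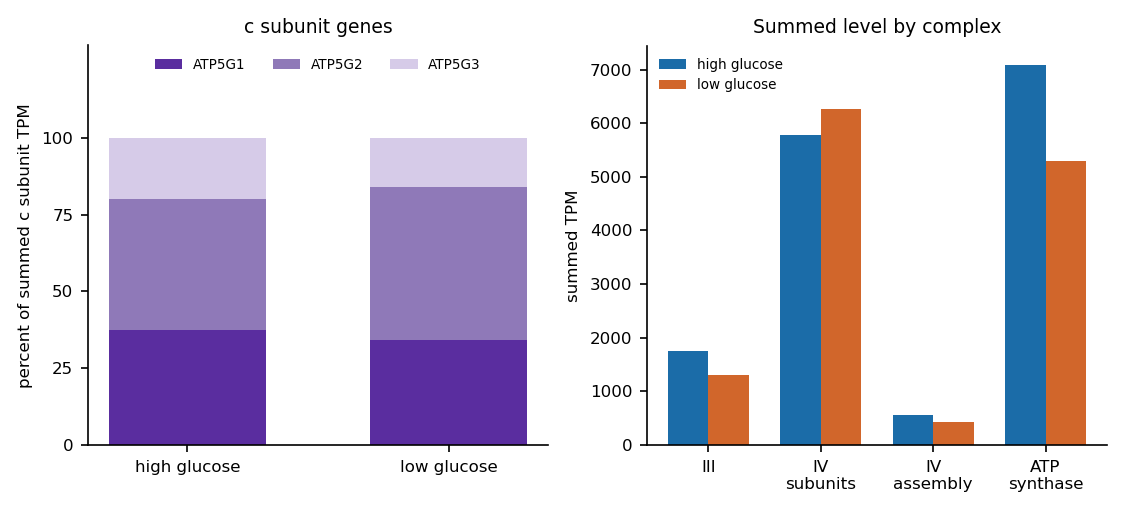
Left: share of the summed TPM of the c subunit genes held by ATP5G1, ATP5G2 and ATP5G3 in each library. Right: summed TPM of complex III, complex IV subunits, complex IV assembly factors and ATP synthase in high (blue) and low glucose (orange); the bars for complex IV subunits are higher in low glucose and the others are lower, with no replicates for error bars.

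Ratios within a library do not depend on how the libraries are scaled. Summed complex III stood at 0.248 of summed ATP synthase in both libraries, so these 2 complexes kept their proportion. Summed complex IV subunits stood at 0.815 of ATP synthase in high and 1.18 in low glucose, a 1.45-fold difference, and still at 0.697 and 0.926 without COX6A1. Between single genes, COX6A1 over COX6B1, 2 subunits of one enzyme that differed in opposite directions, was 1.34 in high and 3.10 in low glucose. Across the 45 members compared, the levels of the 2 libraries kept their order (Spearman rho 0.977), and the difference was nearly unrelated to the mean level (rho 0.07). Both values are descriptions across genes of the same 2 libraries, and genes are not independent replicates.

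The respiratory chain upstream of these complexes gives a setting for the values. Of 37 complex I subunits, 33 lay below 0 with a median of -0.22, and none was 2-fold different. Of all genes compared 45.3% lay below 0, and of those with a mean of at least 100 TPM 63.1%. The most abundant complex I subunit by the mean of both libraries, NDUFB9, went the other way at 625 and 1013 TPM (0.70). NDUFA13 stood at 641 and 543 TPM (-0.24). All 6 genes of complex II and its assembly lay below 0 with a median of -0.44, among them SDHA at 130.1 and 123 TPM and SDHB at 143 and 114 TPM. Complex IV subunits were the only set of the 5 complexes whose median lay above 0 (with COX6B2 included), and that difference between complexes was not tested.

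**Figure D4:**
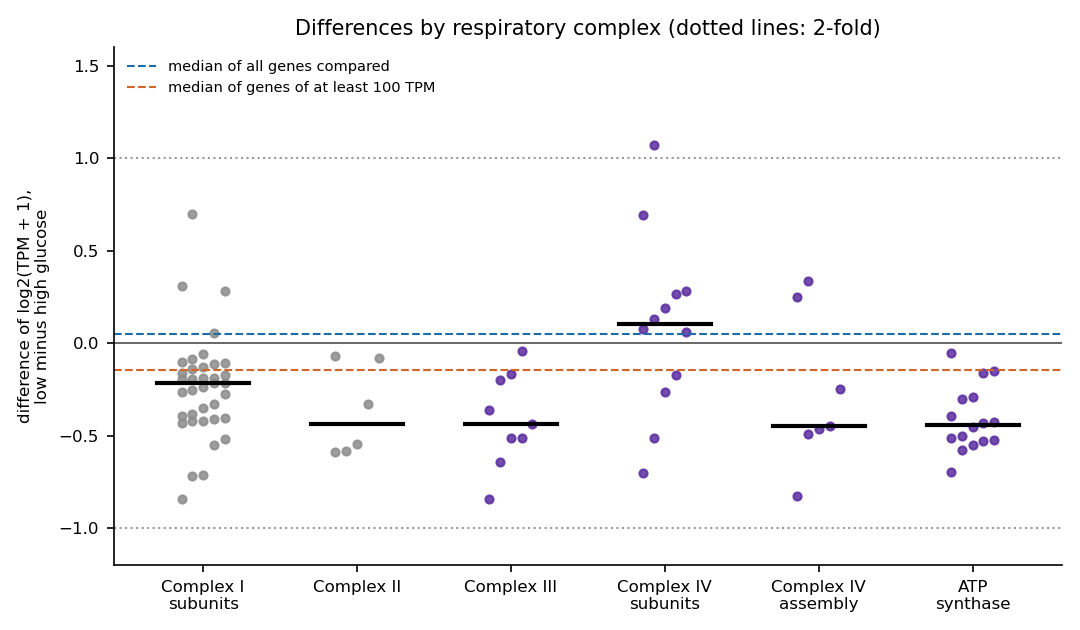
Low minus high glucose difference of log2(TPM + 1) for every compared gene of complexes I and II (grey) and of complex III, complex IV and ATP synthase (purple), with the median of each set as a black bar. Dashed lines mark the median of all genes compared and of genes of at least 100 TPM, and dotted lines mark 2-fold; all points of complex III and ATP synthase lie under 0, and those of complex IV subunits lie on both sides.

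Other genes of the same assembly pathways did not all follow the subunits they serve. Of 6 complex III assembly factors, 5 lay above 0 with a median of 0.13, while all 9 subunits lay below 0. Among the 5, UQCC1 and LYRM7 were nearly level (0.04 and 0.02). Of all 13745 genes compared, 7498 lay above 0, with a median of 0.05. UQCC1, which helps to make and insert cytochrome b, stood at 62.4 and 64.0 TPM, and BCS1L, which inserts the Rieske protein, at 42.9 and 50.5 TPM. Of 20 further complex IV assembly genes, 17 lay below 0 with a median of -0.25 and none was 2-fold different. Among all genes compared, 45.3% lay below 0. PET100 stood at 277 and 207 TPM, and HIGD2A, which also helps to build the enzyme, at 199 and 208 TPM. Of 8 further genes named for or linked to the ATP synthase at the level compared, 5 lay below 0 with a median of -0.36. USMG5 and C14orf2, small subunits of the membrane part, stood at 389.5 and 287 TPM and at 154 and 107 TPM.

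Outside the listed members, NDUFA4, now counted as a complex IV subunit, stood at 173 and 150.5 TPM. Its relative NDUFA4L2, which low oxygen induces, stood at 0.74 and 2.49 TPM, just past 2-fold near the lower limit of the levels compared. COX7B2 and COX8C, testis isoforms, were at 0 in both libraries.

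Many genes of the respiratory chain are known to be driven by nuclear respiratory factors, so the promoters were searched for their motifs, and those of members at the ends of the range are shown. RefSeq windows from 250 bases before to 50 bases after the start (GRCh38.p14) matched 37 of the 48 members with 44 windows in all. The motifs searched on both strands were GCGCATGCG for NRF1, CCGGAAG for ETS factors such as GABP, AAGATGGC for YY1, GGGCGG for the GC box and CCAAT for the CCAAT box; matches may overlap one another. Printed 5′ to 3′ on the strand of the gene, with all matches in capitals, are COX6A1 (higher; chr12:120437863-120438162, plus strand), COX17 and UQCR10 (the largest negative differences; chr3:119677357-119677656, minus strand, the upstream of its 2 windows, and chr22:29767119-29767418, plus strand), and the isoform pair COX6B1 (chr19:35648073-35648372, plus strand) and COX6B2 (chr19:55354670-55354969, minus strand).
COX6A1: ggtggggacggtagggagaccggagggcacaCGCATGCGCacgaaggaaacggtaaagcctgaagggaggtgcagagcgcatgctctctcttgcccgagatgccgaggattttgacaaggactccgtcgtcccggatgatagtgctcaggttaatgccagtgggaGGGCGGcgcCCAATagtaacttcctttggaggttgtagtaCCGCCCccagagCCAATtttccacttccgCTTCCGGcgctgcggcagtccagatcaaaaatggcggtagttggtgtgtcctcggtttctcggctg
COX17: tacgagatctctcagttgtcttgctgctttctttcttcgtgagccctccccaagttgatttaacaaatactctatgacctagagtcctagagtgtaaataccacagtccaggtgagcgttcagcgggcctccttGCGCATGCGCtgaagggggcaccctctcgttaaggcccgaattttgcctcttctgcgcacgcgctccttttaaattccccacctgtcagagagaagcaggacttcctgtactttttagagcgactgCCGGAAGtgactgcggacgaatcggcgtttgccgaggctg
UQCR10: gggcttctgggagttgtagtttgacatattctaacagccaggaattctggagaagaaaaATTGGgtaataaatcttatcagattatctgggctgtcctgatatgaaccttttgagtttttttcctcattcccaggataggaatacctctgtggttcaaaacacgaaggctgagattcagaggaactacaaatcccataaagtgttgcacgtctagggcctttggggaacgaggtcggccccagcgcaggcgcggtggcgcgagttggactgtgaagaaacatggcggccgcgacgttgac
COX6B1: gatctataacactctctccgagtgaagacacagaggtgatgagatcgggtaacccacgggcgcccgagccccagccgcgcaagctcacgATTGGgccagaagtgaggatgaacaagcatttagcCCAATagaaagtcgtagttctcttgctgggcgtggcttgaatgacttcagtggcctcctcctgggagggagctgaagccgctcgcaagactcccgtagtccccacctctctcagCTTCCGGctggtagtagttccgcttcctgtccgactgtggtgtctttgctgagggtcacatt
COX6B2: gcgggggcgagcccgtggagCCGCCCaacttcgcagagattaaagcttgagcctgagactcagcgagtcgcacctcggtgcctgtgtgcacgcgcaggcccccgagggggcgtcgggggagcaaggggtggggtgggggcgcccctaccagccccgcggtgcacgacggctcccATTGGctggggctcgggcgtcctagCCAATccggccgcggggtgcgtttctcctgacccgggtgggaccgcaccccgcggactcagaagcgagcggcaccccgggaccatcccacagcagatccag

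The COX6A1 window holds an NRF1 match at -219, counted from the start with its first base as 1, an ETS match at -16, 2 GC boxes and 2 CCAAT boxes. The printed window of COX17, which differed in the opposite direction, holds 2 overlapping NRF1 matches, on opposite strands, at -116 and -115, and an ETS match at 11, just inside the transcript. Its other window, not printed, holds an ETS match at -145, 4 GC boxes between -22 and -7 and a CCAAT box at 24, counted from the start of that window's transcript. UQCR10 holds a CCAAT box and no other match. COX6B1 holds an ETS match at -12 and 2 CCAAT boxes. COX6B2 holds a GC box and 2 CCAAT boxes. A match is a stretch of letters and not a measured site, and the absence of one says nothing about a factor.

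Over all member windows, 45.5% (20 of 44) held the ETS motif, against 16.5% of 14402 windows of genes compared and 10.3% of all 35116 windows. The NRF1 motif was in 13.6% of member windows, against 3.08% and 1.92%. YY1 was likewise in 13.6%, against 4.71% and 2.89%. The GC box was in 59.1% of member windows, 64.6% of those of genes compared and 45.0% of all. The CCAAT box was in 43.2%, against 34.7% and 34.6%. Members with and without a motif overlapped in their differences. Those with the ETS motif had a median of -0.21 over 18 members compared, and those without had -0.37 over 18. For the GC box the medians were -0.17 over 24 members with it and -0.42 over 12 without, the widest gap of the 5 motifs. The other 3 motifs went the other way, with lower medians in the members that held them. For NRF1 the medians were -0.41 over 6 members and -0.31 over 30, for YY1 -0.46 over 5 and -0.30 over 31, and for the CCAAT box -0.40 over 17 and -0.25 over 19. The 6 with NRF1 included COX6A1, so members with this motif stood at both ends of the range.

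**Figure D5:**
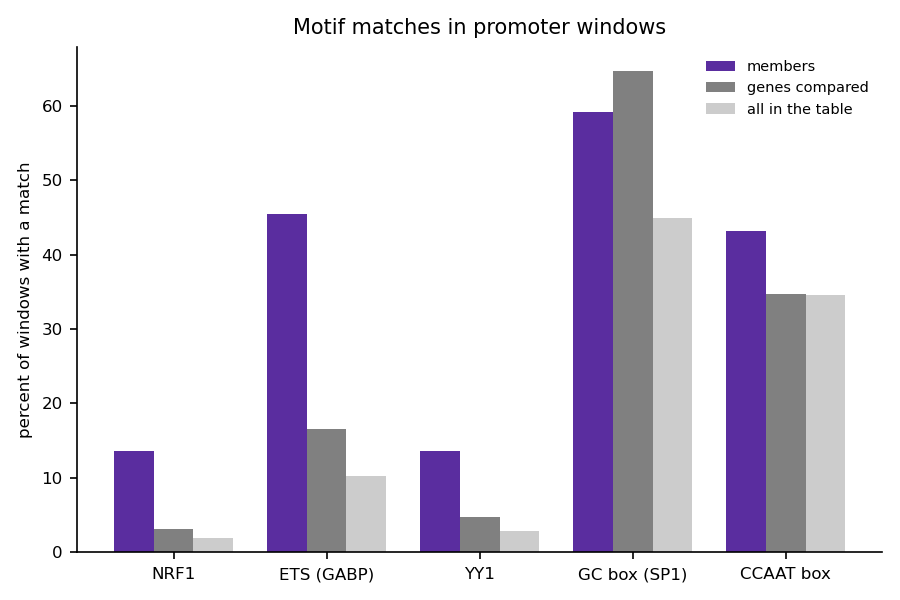
Percent of promoter windows of 300 bases with at least 1 match on either strand, for windows of members (purple, 44), of genes compared (dark grey, 14402) and of all genes in the table (light grey, 35116). ETS, NRF1 and YY1 matches were in larger shares of member windows than of the others, and GC boxes were not above those of genes compared.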

How the data were processed

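RNA-seq of 2 libraries, 1 per medium, was used, grouped by the treatment label. The deposited values are TPM per gene, per the file headers; the submitters' processing notes name cutadapt, RSEM 1.2.21, which divides reads shared by several genes, and the hg19 build. Not given in the sources used here are the aligner, annotation, strand setting and filters. Coordinates of genes are those of the files (hg19, 1-based) and those of promoters are GRCh38.p14; none was converted. The members and all gene lists were chosen with earlier results of these data known. All members were named, and of other lists the 2 most abundant genes and up to 2 past 2-fold, with some further genes added after the data were seen. Genes with a mean of at least 1 TPM were compared on log2(TPM + 1), with 2-fold as the threshold and no test. Members and lists are described by counts and medians beside those of all genes. Alternatives were 4 scalings, pseudocounts of 0.1 and 5, other filters (none, 10 and 100 TPM) and thresholds (1.5-fold and 3-fold), and entries with shared intervals left out; leaving out entries that overlap another was added after the data were seen. Counts of common complex IV subunits above 0, and of complex III and ATP synthase genes below 0, were also added then. Sources with protein sequences were not used. The procedure was checked on simulated data, with seeded changes larger than 2-fold in genes of at least 10 TPM. That check does not cover differences under 2-fold or genes of lower level. Python 3.11.15, pandas 2.3.3, numpy 2.4.6 and matplotlib 3.10.9 were used.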

Additional observations from a re-analysis of the deposited data

How the results depend on the processing

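With 1 library per medium there is no replicate to leave out, and no paired analysis was possible because each medium has a single library. The depth is unknown, so no counting error can be given. The medians of complex III, ATP synthase and complex IV subunits kept their signs under every alternative run (-0.53 to -0.40, -0.54 to -0.41 and 0.01 to 0.14); that of complex IV includes COX6B2, without which it turned sign with COX8A. All compared genes of complex III and ATP synthase lay below 0 under each of them, while 5 to 7 of the 11 common complex IV subunits lay above 0. Most alternatives could not have turned the complex III and ATP synthase genes, because pseudocounts, filters and thresholds leave the sign of a gene unchanged. Only the scaling to the total without the 50 most abundant genes raised the low glucose values, by a factor of 1.02. Under it UQCRQ lay at -0.01. The other scalings lowered them. A median counted as moved at 0.1 or more. The median of the complex IV assembly factors was -0.45, and -0.29 among genes of at least 100 TPM, where 2 of the 7 factors remain. The count of members at least 2-fold higher, 1 as reported, was 0 under median-of-ratios scaling, trimmed-mean scaling, a pseudocount of 5, a mean of at least 10 TPM, a mean of at least 100 TPM and a 3-fold threshold. At 1.5-fold it was 2, with 5 lower in place of 0. Both filters leave out COX6B2, which therefore has no value there. The scalings moved the median of all genes to between -0.03 and 0.08.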

Other observations

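Factors that drive mitochondrial biogenesis did not share one direction. Of 13 such genes, 8 lay above 0 and 5 below, with a median of 0.14, and none met the 2-fold rule on the log2(TPM + 1) scale. Of all 13745 genes compared, 7498 lay above 0, with a median of 0.05. POLRMT, the mitochondrial RNA polymerase, stood at 89.1 TPM under high and 90.9 TPM under low glucose, and the transcription factor gene YY1 at 75.9 and 61.2 TPM. Picked out once the values were known, TFAM, which packages and transcribes mitochondrial DNA, stood at 45.5 and 31.9 TPM (-0.50), and the coactivator gene PPARGC1A at 1.71 and 4.05 TPM (0.90). The TPM of PPARGC1A thus differed by more than 2-fold, and the pseudocount of 1 brought its difference under the rule. NRF1 itself was nearly level at 11.1 and 10.2 TPM.

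Genes of mitochondrial import and protein quality control were evenly divided, with 5 of 10 above 0 and a median of 0.01. Among all 13745 genes compared, 7498 lay above 0, with a median of 0.05. The chaperone genes HSPD1 and HSPA9 stood at 883 and 847 TPM and at 308 and 356 TPM. LONP1, the matrix protease known to degrade COX4I1 under low oxygen and also picked out once its value was known, stood at 122 and 192 TPM (0.65). Of 6 genes linked to the choice between COX4I1 and COX4I2, LONP1 among them, 3 lay above 0; CHCHD2 stood at 997 and 1091 TPM and HIF1A at 193 and 174 TPM. Of the 7 fibroblast, immune and endothelial markers, summed TPM was 25.8 in high and 48.1 in low glucose, with most of the gap from CD68 at 20.4 and 39.3 TPM. COL1A1 stood at 1.06 and 4.03 TPM and COL3A1 at 2.09 and 2.91 TPM, while PTPRC (0.83 and 0.50 TPM) and PECAM1 (1.35 and 1.25 TPM) lay lower in low glucose, and DCN (0.07 TPM) and VWF (0.05 TPM) had the same value in both; their part in the results above was not tested.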
